A study of Mus musculus with 16 samples.

Results

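Laminins are secreted proteins of the basement membrane, and the data below describe the mRNA of their subunit genes in the trigeminal ganglion of mice. The set holds 10 listed genes, Lama1 to Lama5, Lamb1 to Lamb3, Lamc1 and Lamc3, out of 25719 gene identifiers measured in each library, of which 25614 had a symbol. They were listed by name as subunit genes, with earlier results of these data known. Sensory neurons of the face have their cell bodies in this ganglion, among satellite glia, Schwann cells, fibroblasts and vessels. The study compared Nogo-A knockout (KO) with wild-type (WT) mice; Nogo-A is the longest product of Rtn4 and is known to inhibit neurite growth. There were 4 groups of 4 libraries, P25 Nogo-A KO, P25 WT, E14 Nogo-A KO and E14 WT, where P25 is postnatal day 25 and E14 is embryonic day 14. Each library came from 1 whole ganglion without treatment or cell sorting, and the labels state no strain, sex or construction of the Nogo-A allele.

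A laminin molecule joins an alpha, a beta and a gamma chain, and the alpha chain carries the globular end that cells bind. Integrins and dystroglycan are the main receptors, and nidogens, perlecan, agrin and collagen IV bind laminins into the sheet. In peripheral nerve, the alpha-2 chain with beta-1 and gamma-1 is the laminin of the Schwann cell surface, and loss of Lama2 in mice and people leaves nerves and muscle with too little myelin or with dystrophy. The alpha-4 chain is found in endoneurium and vessel walls, alpha-5 in vessels and epithelia, and alpha-1 mainly in early embryos and a few adult membranes.

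Library totals ran from 15532373 to 29562379 counts. The identity of the tissue was checked with marker genes: 7 sensory neuron markers summed to 8193 to 9701 CPM in P25 KO, 7348 to 9641 CPM in P25 WT, 10984 to 14799 CPM in E14 KO and 10383 to 17389 CPM in E14 WT libraries. Rtn4 itself read 364, 379.9, 345 and 384 CPM in P25 KO libraries and 494, 542, 512 and 406 CPM in P25 WT libraries, so the genotypes did not overlap at P25, though the gene was not called (log2 fold change -0.41, SE 0.26, edgeR adjusted p = 1). In E14 libraries it ran over 236 to 405 CPM in KO and 144 to 521 CPM in WT; this total includes shorter transcripts of the gene and does not check the genotype labels. A trend on transcript length and GC content was fitted to the deviations of 13414 genes from the mean of their stage. It was strongest in 2 WT libraries, with 63.4% of the variance in E14 WT replicate 2 and 50.4% in P25 WT replicate 4. The other libraries had 2.2 to 45.4%, so P25 WT replicate 4 was not far above the next. Values without E14 WT replicate 2, P25 WT replicate 4 or both are given beside the results that these libraries moved most. At E14, 2 WT libraries are named as R and L of 1 number, and so are 2 KO libraries, so each of these may come from 1 animal although the labels state 4 animals per group.

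Most laminin chains of the ganglion differed between stages. Of the 10 genes, 8 were called in KO ganglia and 8 in WT ganglia, where called means a Benjamini-Hochberg adjusted p under 0.05 in edgeR's quasi-likelihood test over 15109 genes. Lama2, Lama3, Lamb2 and Lamc3 were higher at P25 than at E14 in both genotypes, and Lama1, Lama4, Lamb1 and Lamb3 were lower. Lama5 and Lamc1 were called in neither genotype, and their values were positive in KO and negative in WT ganglia. All 10 genes passed the filter on low counts in this fit, though Lamb3 was not tested in every alternative. Over all genes tested, 59.8% were called in KO ganglia and 59.6% in WT ganglia, about as many higher (30.6% and 29.7%) as lower (29.2% and 29.8%), so a call was common at this contrast. The stage comparisons in KO and in WT share no library, but the spread in both is estimated from all 4 groups together. The libraries of P25 and E14 did not overlap for 8 of the 10 genes in KO ganglia and for 6 in WT ganglia, against 59.8% and 50.2% of all genes. In whole ganglia, fewer cells of a type and less RNA per cell cannot be told apart.

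**Figure D1:**
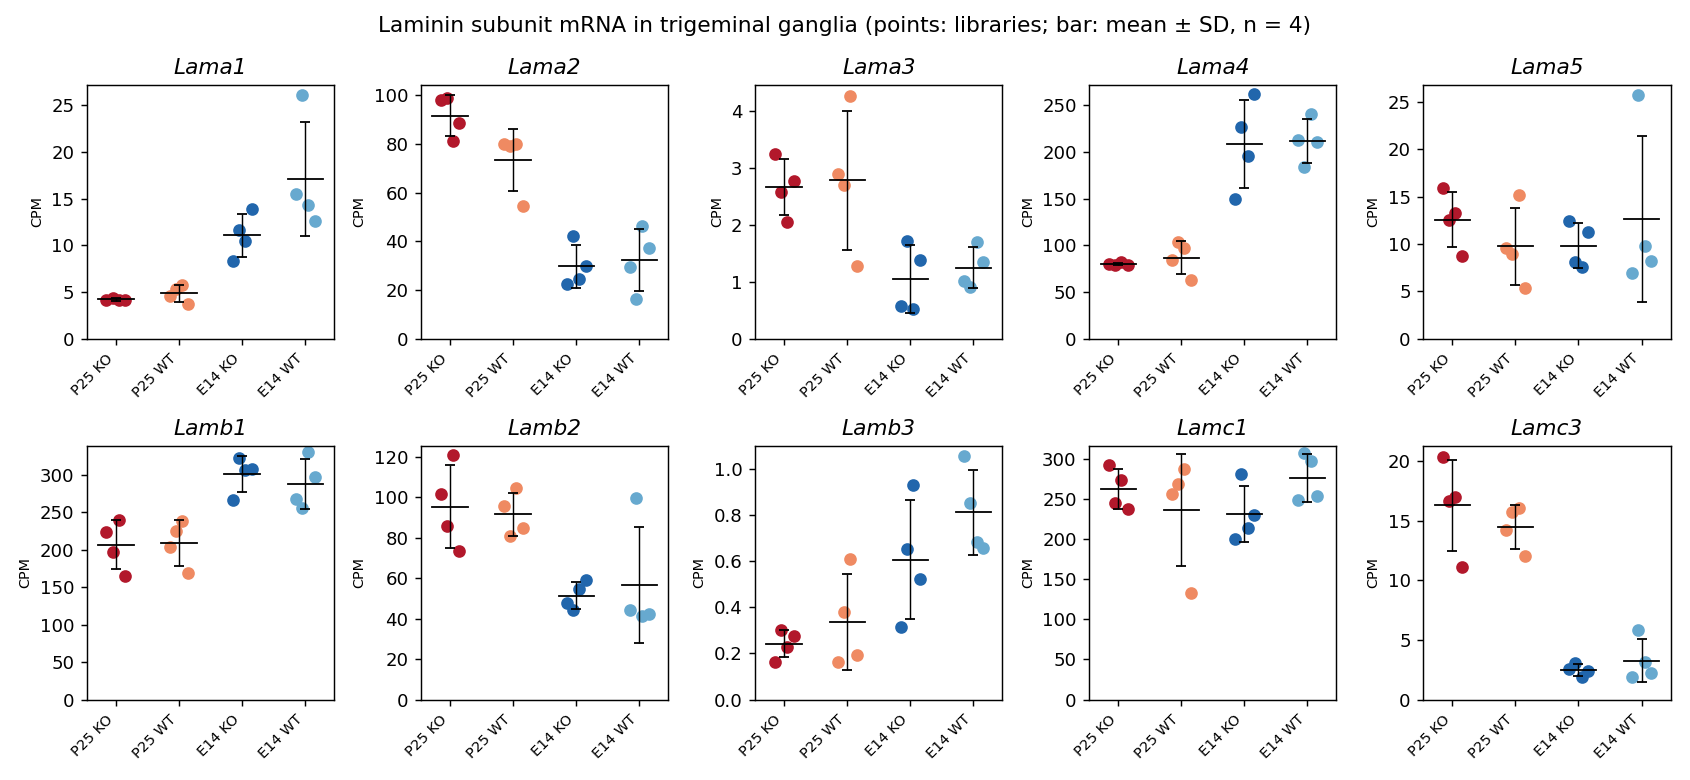
Level of each laminin gene (CPM, on an axis that starts at 0) in each library of the 4 groups, with the mean and SD over 4 libraries. Lama2 and Lamc3 are above every E14 library in all P25 libraries, Lama1 and Lama4 are below, and KO and WT points lie over each other in most panels.

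Start regions of the genes that changed in opposite directions are shown first, as the sequence context of Lama2 and Lamb2, which rose, and of Lamb1, which fell. RefSeq's table for GRCm38.p6 held a promoter window, 250 bases before to 50 bases after the start, for 5 of the 10 genes. The sequences run 5′ to 3′ in the direction of the gene, and capitals mark the motifs searched on both strands: the GC box (GGGCGG, or CCGCCC on the other strand), the CCAAT box (CCAAT or ATTGG) and the TATA box (TATAAA or TTTATA).
Lama2 chr10:27616893-27617192 (minus strand): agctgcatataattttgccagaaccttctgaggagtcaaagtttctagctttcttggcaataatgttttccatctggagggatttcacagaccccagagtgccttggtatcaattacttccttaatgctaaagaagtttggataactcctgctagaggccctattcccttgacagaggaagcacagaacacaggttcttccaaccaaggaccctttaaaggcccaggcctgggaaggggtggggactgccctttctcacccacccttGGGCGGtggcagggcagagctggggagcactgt
Lamb2 chr9:108479612-108479911 (plus strand): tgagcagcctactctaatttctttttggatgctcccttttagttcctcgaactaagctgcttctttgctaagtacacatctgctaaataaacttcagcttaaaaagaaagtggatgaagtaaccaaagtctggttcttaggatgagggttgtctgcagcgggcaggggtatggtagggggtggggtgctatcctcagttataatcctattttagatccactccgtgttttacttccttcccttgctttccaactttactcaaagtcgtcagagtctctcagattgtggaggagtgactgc
Lamb1 chr12:31265043-31265342 (plus strand): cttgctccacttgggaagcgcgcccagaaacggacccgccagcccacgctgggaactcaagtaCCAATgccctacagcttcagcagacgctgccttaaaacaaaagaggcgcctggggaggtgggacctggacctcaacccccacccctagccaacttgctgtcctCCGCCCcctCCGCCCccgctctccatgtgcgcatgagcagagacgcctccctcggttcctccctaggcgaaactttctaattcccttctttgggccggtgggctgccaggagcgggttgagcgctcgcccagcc
The Lama2 window had 50.3% GC and 1 GC box at base 18 after the start. Its start lies inside the gene as GENCODE annotates it, so this window is at one of several starts. The starts of the Lamb2, Lamb1 and both Lamb3 windows also lie inside their genes as annotated. The Lamb2 window had 44.0% GC, and none of the motifs was found in these 300 bases. The Lamb1 window had 63.7% GC, 2 GC boxes on the other strand beginning 84 and 75 bases before the start, and 1 CCAAT box 187 bases before it. Of all 32851 promoter windows of the same length, 35.7% held a GC box, 37.4% a CCAAT box and 13.6% a TATA box on either strand, so each motif is common. The Lama5 window held 4 GC boxes at 72.7% GC, and both Lamb3 windows held none of the motifs. A match in letters is not a binding site, and these windows were not compared with any measurement of binding.

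Among the alpha chains, Lama4 was the most abundant per length at both stages, and its level was lower at P25. The gene (ENSMUSG00000019846, GRCm38 chromosome 10, 38965515 to 39110188, plus strand) encodes the alpha-4 chain of endoneurium and vessels. Lama4 read 80.5, 79.5, 82.2 and 78.6 CPM in P25 KO libraries and 84.3, 104, 97.2 and 62.9 CPM in P25 WT libraries. At E14 it read 150.2, 227, 196 and 262 CPM in E14 KO libraries and 214, 184, 241 and 211 CPM in E14 WT libraries. Every P25 library lay below every E14 library, and the 4 P25 KO libraries lay within 4 CPM of each other. The log2 fold change, P25 over E14, was -1.38 in KO ganglia (SE 0.18, edgeR adjusted p = 2.11e-06) and -1.29 in WT ganglia (SE 0.18, edgeR adjusted p = 4.95e-06).

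Lama2 moved the other way. This gene (ENSMUSG00000019899, GRCm38 chromosome 10, 26980036 to 27619758, minus strand) encodes the alpha-2 chain of the Schwann cell basement membrane and gives its name to a congenital muscular dystrophy in people. It read 98.03, 98.6, 80.96 and 88.6 CPM in P25 KO libraries and 79.8, 79.01, 80.02 and 54.4 CPM in P25 WT libraries. At E14 its libraries read 22.3, 41.99, 24.5 and 29.9 CPM in E14 KO libraries and 29.4, 16.4, 46.2 and 37.4 CPM in E14 WT libraries. All P25 libraries lay above all E14 libraries; P25 WT replicate 4 was the lowest at its stage and E14 WT replicate 2 the lowest of all. The log2 fold change was 1.62 in KO ganglia (SE 0.26, edgeR adjusted p = 1.87e-05) and 1.18 in WT ganglia (SE 0.25, edgeR adjusted p = 0.000489), and the call held in every alternative tried. In WT the value was 0.96 without E14 WT replicate 2, 1.30 without P25 WT replicate 4 and 1.08 without both. An unnamed gene model lies on the same strand within Lama2, and the counting may have split reads between them. Lamb3 and Lamc1 each overlap such a model on their own strand as well.

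Lama1 (ENSMUSG00000032796, GRCm38 chromosome 17, 67697259 to 67822647, plus strand) encodes the alpha-1 chain of early embryonic basement membranes, and it fell with age. P25 libraries had 4.12, 4.40, 4.20 and 4.17 CPM in P25 KO libraries and 4.63, 5.35, 5.74 and 3.75 CPM in P25 WT libraries. E14 libraries had 8.34, 11.6, 10.5 and 13.9 CPM in E14 KO libraries and 15.5, 26.04, 14.3 and 12.6 CPM in E14 WT libraries. No P25 library reached the lowest E14 library, and E14 WT replicate 2 was the highest library of its group. Its log2 fold change was -1.39 in KO ganglia (SE 0.24, edgeR adjusted p = 5.01e-05) and -1.81 in WT ganglia (SE 0.24, edgeR adjusted p = 2.12e-06). Leaving out E14 WT replicate 2 gave a WT value of -1.54, and it stayed called.

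Lama5 and Lama3 were minor alpha chains. Lama5 (ENSMUSG00000015647, GRCm38 chromosome 2, 180176373 to 180225859, minus strand), the alpha-5 chain of mature vessels and epithelia, read 15.9, 12.5, 13.2 and 8.73 CPM in P25 KO libraries and 9.62, 8.89, 15.1 and 5.33 CPM in P25 WT libraries. At E14 it read 12.4, 8.12, 7.57 and 11.2 CPM in E14 KO libraries and 6.97, 25.7, 9.84 and 8.24 CPM in E14 WT libraries. The stages overlapped in both genotypes, and 1 library, E14 WT replicate 2, stood far above the rest of its group. The log2 fold change was 0.36 in KO ganglia (95% interval -0.40 to 1.11, edgeR adjusted p = 0.407) and -0.37 in WT ganglia (95% interval -1.12 to 0.38, edgeR adjusted p = 0.388); without E14 WT replicate 2 the WT value was 0.23. Lama3 (ENSMUSG00000024421, GRCm38 chromosome 18, 12333819 to 12583013, plus strand), the alpha-3 chain of epithelial anchoring, ran over 2.05 to 3.25 CPM in P25 KO, 1.27 to 4.27 CPM in P25 WT, 0.524 to 1.73 CPM in E14 KO and 0.915 to 1.71 CPM in E14 WT libraries. It was higher at P25 at these low levels, with a log2 fold change of 1.31 in KO ganglia (SE 0.41, edgeR adjusted p = 0.00877) and 1.16 in WT ganglia (SE 0.40, edgeR adjusted p = 0.0174). In WT the groups overlapped, and the call was lost without P25 WT replicate 3 (0.87, edgeR adjusted p = 0.0827; range over the alternatives 0.000515 to 0.0827).

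Lamb1 led the beta chains at both stages. This gene (ENSMUSG00000002900, GRCm38 chromosome 12, 31265234 to 31329644, plus strand), the beta-1 chain that most laminins share, was modestly lower at P25. It read 224, 197, 240.3 and 165 CPM in P25 KO libraries and 204, 225, 238 and 169 CPM in P25 WT libraries. At E14 the values were 266, 323, 307 and 308 CPM in E14 KO libraries and 268, 255, 331 and 297 CPM in E14 WT libraries. No P25 library reached any E14 library of its own genotype. The change in log2 units was -0.54 in KO ganglia (SE 0.16, edgeR adjusted p = 0.0058) and -0.46 in WT ganglia (SE 0.16, edgeR adjusted p = 0.0163). The WT call did not hold in 6 of the alternatives, with edgeR adjusted p up to 0.1003, namely no low-count filter (-0.39), the fit to the compared groups only (-0.47), offsets for transcript length and GC content (-0.24), and leaving out E14 WT replicate 3 (-0.33), E14 WT replicate 4 (-0.38) or P25 WT replicate 4 (-0.37).

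Lamb2 (ENSMUSG00000052911, GRCm38 chromosome 9, 108479736 to 108490530, plus strand) encodes the beta-2 chain, known from the neuromuscular junction, the kidney filter and the perineurium. It read 101, 85.9, 121 and 73.3 CPM in P25 KO libraries and 95.5, 81.04, 105 and 84.7 CPM in P25 WT libraries. At E14 it read 47.8, 44.1, 54.6 and 59.00 CPM in E14 KO libraries and 44.2, 99.4, 41.2 and 42.1 CPM in E14 WT libraries. Apart from E14 WT replicate 2, all E14 libraries lay below all P25 libraries. The log2 fold change was 0.89 in KO ganglia (SE 0.24, edgeR adjusted p = 0.00379) and 0.69 in WT ganglia (SE 0.24, edgeR adjusted p = 0.0193). In WT it was 1.11 without E14 WT replicate 2 and 1.14 without that library and P25 WT replicate 4. The WT call was lost without P25 WT replicate 3 (0.62, edgeR adjusted p = 0.0526) and in the fit to the compared groups only (0.68, edgeR adjusted p = 0.0672), in a range of 1.68e-06 to 0.0672 over the alternatives.

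Lamb3 was near the limit of detection. The gene (ENSMUSG00000026639, GRCm38 chromosome 1, 193207699 to 193343878, plus strand) encodes the beta-3 chain, the partner of alpha-3 in skin. It had 4 to 7 counts per library in P25 KO, 4 to 17 in P25 WT, 5 to 16 in E14 KO and 12 to 23 in E14 WT. The levels were 0.165 to 0.302 CPM, 0.161 to 0.610 CPM, 0.316 to 0.932 CPM and 0.657 to 1.05 CPM in the same order of groups. It was lower at P25, with a log2 fold change of -1.30 in KO ganglia (SE 0.51, edgeR adjusted p = 0.0331) and -1.25 in WT ganglia (SE 0.47, edgeR adjusted p = 0.0287), but neither call held throughout. Both were lost with no low-count filter (edgeR adjusted p = 0.0678 in KO and 0.0721 in WT). Lamb3 was tested in 24 alternatives in KO and 25 in WT, where the other laminin genes were tested in 26. The KO call was lost without E14 KO replicate 2 or 3 or without any 1 P25 KO replicate (edgeR adjusted p up to 0.117, without E14 KO replicate 3). The WT call was lost without E14 WT replicate 1 or P25 WT replicate 1, 2 or 4 (edgeR adjusted p up to 0.1002, without E14 WT replicate 1), and without E14 WT replicate 2 and P25 WT replicate 4 together (-1.04, edgeR adjusted p = 0.105). Lamb3 is uncertain for another reason: Hsd11b1 and G0s2 lie on the opposite strand within its span, and whether the counting used strand is not stated. Hsd11b1, a cortisone reductase, stayed at or below 0.754 CPM in every library, a range near that of Lamb3 itself. Its counts summed to 45 in P25 KO, 51 in P25 WT, 1 in E14 KO and 0 in E14 WT. It was called higher at P25, with a log2 fold change of 4.67 in KO (SE 0.92) and 6.46 in WT (SE 1.11), opposite in direction to Lamb3. G0s2, an inhibitor of fat breakdown, ran over 6.75 to 14.3 CPM in P25 KO, 7.36 to 13.1 CPM in P25 WT, 1.96 to 3.84 CPM in E14 KO and 1.16 to 2.52 CPM in E14 WT libraries, opposite in direction to Lamb3.

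The gamma chains held the gene with the largest difference and the one with the smallest. Lamc3 (ENSMUSG00000026840, GRCm38 chromosome 2, 31887291 to 31946539, plus strand) encodes the gamma-3 chain, known from the brain surface, the retina and peripheral nerve. It read 20.3, 16.6, 16.98 and 11.2 CPM in P25 KO libraries and 14.2, 15.7, 16.1 and 12.02 CPM in P25 WT libraries. At E14 it read 2.59, 3.08, 1.86 and 2.38 CPM in E14 KO libraries and 1.88, 5.86, 3.13 and 2.19 CPM in E14 WT libraries. All P25 libraries lay above all E14 libraries, and E14 WT replicate 2 was the highest E14 library. P25 over E14, the log2 fold change was 2.71 in KO ganglia (SE 0.31, edgeR adjusted p = 2.81e-07) and 2.17 in WT ganglia (SE 0.30, edgeR adjusted p = 3.74e-06), and in WT it was 2.60 without E14 WT replicate 2.

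Lamc1 (ENSMUSG00000026478, GRCm38 chromosome 1, 153218922 to 153332786, minus strand), the gamma-1 chain found in most laminins, was not called. It read 293, 246, 274 and 238 CPM in P25 KO libraries and 256, 269, 288 and 133 CPM in P25 WT libraries. At E14 it read 200.3, 281, 214 and 229.8 CPM in E14 KO libraries and 249, 308, 297 and 254 CPM in E14 WT libraries. The stages overlapped in both genotypes, and P25 WT replicate 4 was the lowest of the 16 libraries. The log2 fold change was 0.18 in KO ganglia (95% interval -0.23 to 0.59, edgeR adjusted p = 0.437) and -0.23 in WT ganglia (95% interval -0.64 to 0.18, edgeR adjusted p = 0.332). These intervals leave out a difference of 2-fold in either direction; without P25 WT replicate 4 the WT value was -0.03.

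**Figure D2:**
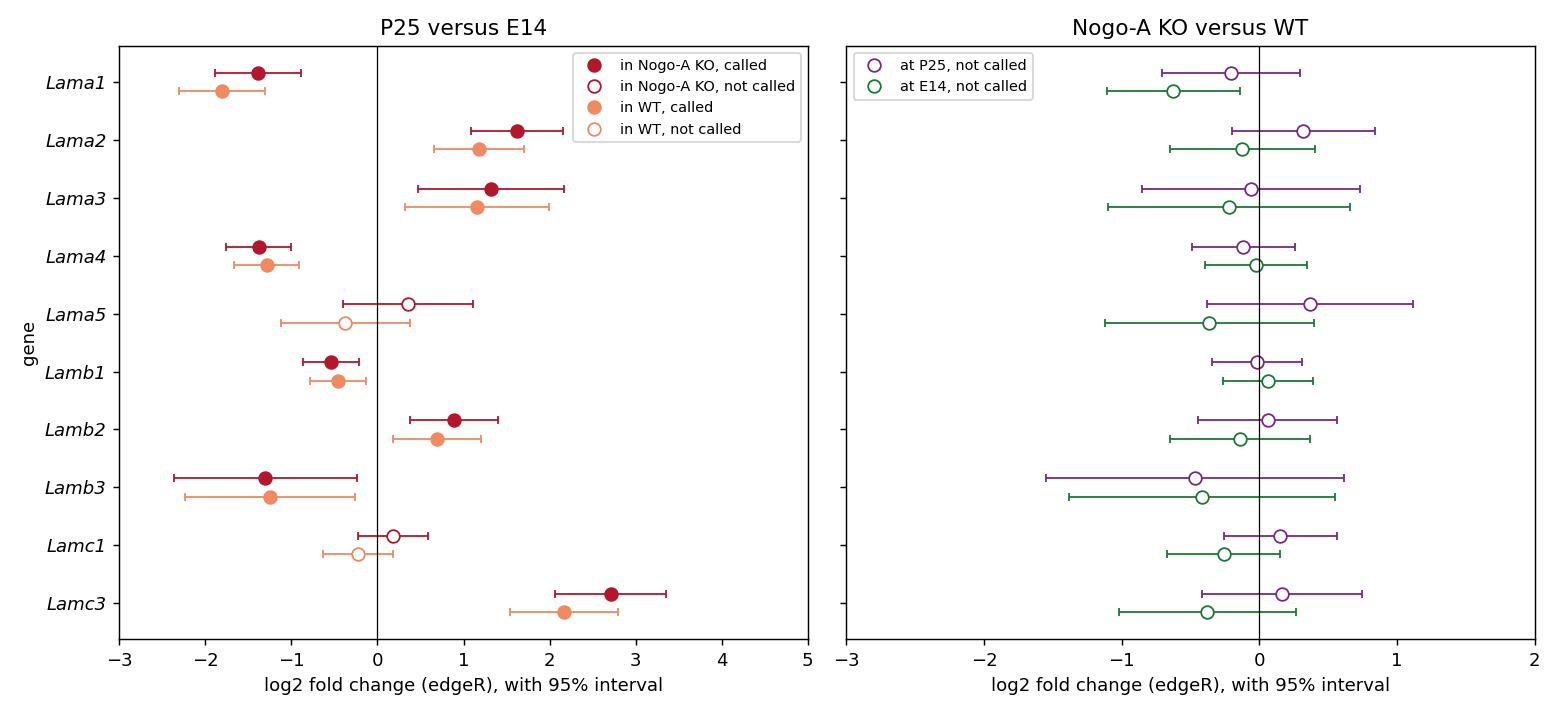
Log2 fold change of each laminin gene with its 95% interval from edgeR, on the left P25 over E14 in KO and WT ganglia and on the right Nogo-A KO over WT at P25 and at E14; filled points were called. On the left 8 genes were called in each genotype, from -1.81 for Lama1 to 2.17 for Lamc3 in WT, and on the right none was called.

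Levels per length show which chains make up the pool. CPM values were divided by the length in kilobases of the longest coding transcript, 4.867 to 11.388 kb, and each gene was given as a share of its chain class in each library, as a description with no test. Lama4 made up 54.02% ± 2.46 of the alpha chains in P25 KO, 60.8% ± 2.16 in P25 WT, 86.7% ± 1.77 in E14 KO and 84.5% ± 2.08 in E14 WT libraries (SD, n = 4 each). Lama2 made up 38.7% ± 2.34, 32.4% ± 1.99, 7.79% ± 1.58 and 7.95% ± 2.51 in the same order of groups. Alpha-2 and alpha-4 mRNA together thus made up nearly all of the class, and at P25 the alpha-2 share was several times that at E14. The ratio of Lama4 to Lama2 per kb ran over 1.28 to 1.62 in P25 KO, 1.68 to 2.09 in P25 WT, 8.58 to 13.9 in E14 KO and 8.31 to 17.8 in E14 WT libraries. In CPM, which is not divided by length, Lama2 averaged 91.6 ± 8.42 CPM and Lama4 80.2 ± 1.56 CPM in P25 KO, so the order of these 2 chains in that group depends on the division.

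The other alpha chains had small shares. Lama1 made up 1.803% ± 0.0790 of the class in P25 KO, 2.17% ± 0.131 in P25 WT, 2.93% ± 0.107 in E14 KO and 4.44% ± 1.98 in E14 WT libraries. Lama5 made up 4.47% ± 0.935, 3.54% ± 1.02, 2.29% ± 0.970 and 2.79% ± 2.19 in those groups. Without E14 WT replicate 2 the E14 WT means were 1.70% ± 0.173 for Lama5, 3.47% ± 0.463 for Lama1 and 9.07% ± 1.38 for Lama2 (SD, n = 3). Lama3 reached at most 1.51% in any library. The order by mean share was Lama4, Lama2, Lama5, Lama1 and Lama3 in both P25 groups, and Lama4, Lama2, Lama1, Lama5 and Lama3 in both E14 groups; Lama1 and Lama5 overlapped in E14 KO and in E14 WT, and Lama2 overlapped with Lama1 and with Lama5 in E14 WT, so their order there is not beyond the spread. In E14 WT replicate 2, Lama1 (7.36%) and Lama5 (6.07%) were both above Lama2 (4.59%).

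Beta and gamma classes were led by the same gene at both stages. Lamb1 made up 67.9% ± 1.39 of the beta chains in P25 KO, 68.8% ± 3.00 in P25 WT, 84.9% ± 1.79 in E14 KO and 82.99% ± 7.96 in E14 WT libraries. Lamb2 made up nearly all of the rest, 32.00% ± 1.41, 31.1% ± 3.03, 14.9% ± 1.803 and 16.7% ± 7.94 in the same order. The ratio of Lamb2 to Lamb1 per kb ran over 0.448 to 0.517 in P25 KO and 0.369 to 0.515 in P25 WT libraries, against 0.141 to 0.197 in E14 KO and 0.128 to 0.400 in E14 WT libraries, and the value of 0.400 in E14 WT replicate 2 was the only E14 value inside the P25 range. Lamc1 made up 92.6% ± 1.15 of the 2 gamma chains in P25 KO, 92.2% ± 1.83 in P25 WT, 98.6% ± 0.221 in E14 KO and 98.5% ± 0.652 in E14 WT libraries, and Lamc3 the remainder. Summed per kb, alpha chains averaged 24.6 ± 0.982 CPM per kb in P25 KO, 23.7 ± 4.63 in P25 WT, 39.7 ± 8.65 in E14 KO and 41.5 ± 4.19 in E14 WT libraries (SD, n = 4 each). The summed alpha level was thus lower at P25, with no overlap between stages. Summed beta chains averaged 52.7, 52.5, 61.3 and 60.00 CPM per kb and summed gamma chains 37.2, 33.5, 30.8 and 36.9 CPM per kb in the same order, and both overlapped between stages.

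**Figure D3:**
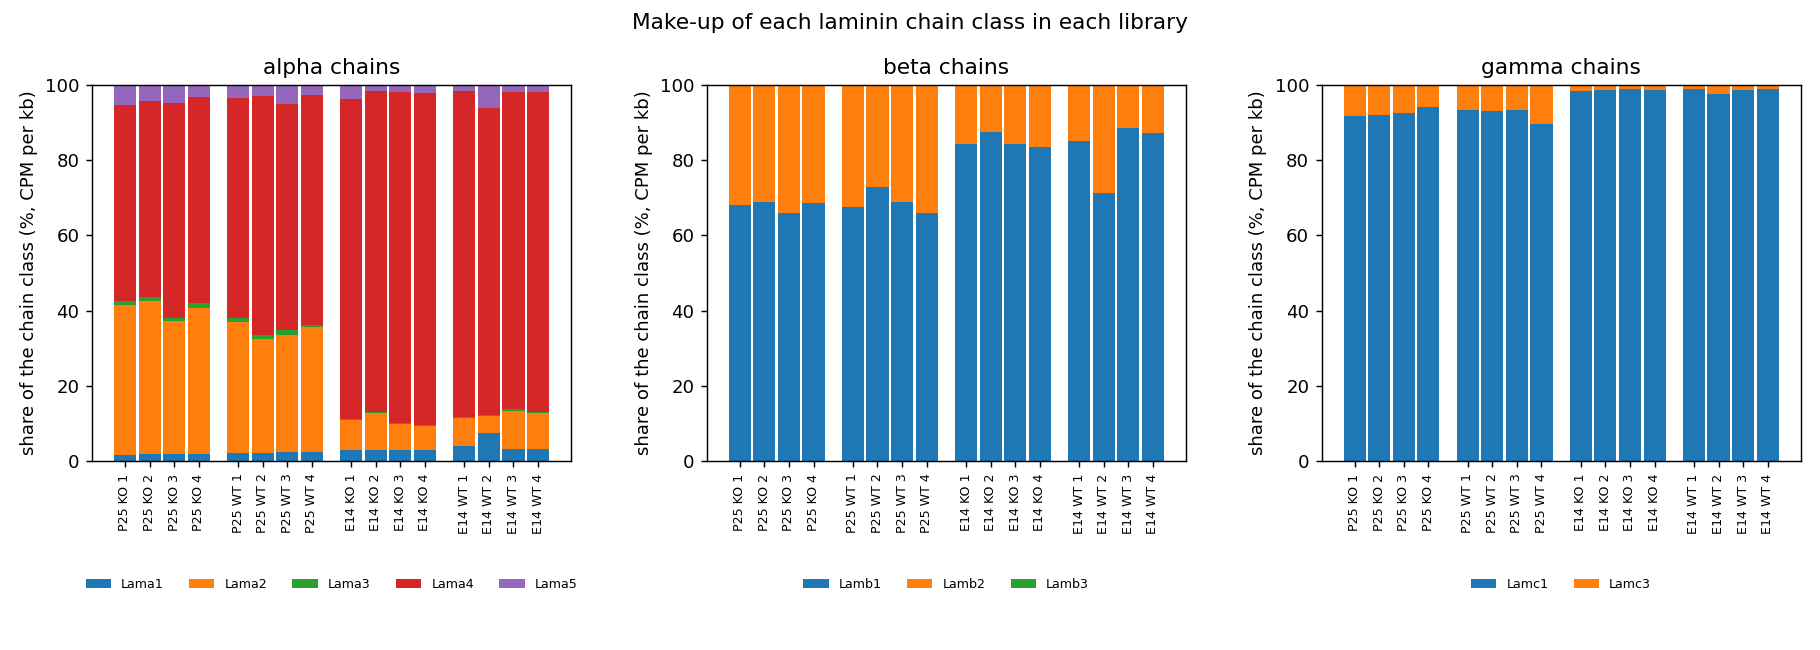
Share of each gene in the summed level per kilobase (percent) of the alpha, beta and gamma chains, with 1 bar per library. Lama2 takes 30.4 to 40.7% of the alpha chains in P25 libraries and 4.59 to 10.2% in E14 libraries, and E14 WT replicate 2 has the largest E14 share of Lamb2.

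Between the genotypes, no laminin gene was called at either stage. At P25, 0 of 10 were called, against 0.0463% of all genes (7 of 15109), and 0 had an unadjusted p under 0.05, against 1.87% of all genes; DESeq2 called 0 of the 10 and 17 genes in all. At E14, 0 of 10 were called, against 0.0199% of all genes (3 of 15109), and 1 had an unadjusted p under 0.05, against 4.86%; DESeq2 called 0 of the 10 and 6 genes in all. The 95% intervals of the KO over WT log2 fold change leave out a 2-fold difference in either direction for Lama1, Lama2, Lama3, Lama4, Lamb1, Lamb2, Lamc1 and Lamc3 at P25, but not for Lama5 and Lamb3. At E14 they do so for Lama2, Lama4, Lamb1, Lamb2 and Lamc1.

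Lama2 was the only laminin gene whose P25 KO and WT libraries did not overlap, which was true of 3.32% of all genes. Its P25 KO libraries lay above all P25 WT libraries by less than 1 CPM at the nearest. The log2 fold change, KO over WT, was 0.32 (SE 0.25, edgeR adjusted p = 1), and 0.20 without P25 WT replicate 4. As shares of the alpha chains at P25, Lama2 ran over 35.4 to 40.7% in KO and 30.4 to 34.8% in WT libraries. Lama4 ran over 51.9 to 57.1% in KO and 58.5 to 63.6% in WT libraries, and Lama1 over 1.69 to 1.85% in KO and 2.04 to 2.31% in WT libraries. The P25 KO libraries thus lay on the side of more alpha-2 and less alpha-4 and alpha-1 for each of these shares. P25 WT replicate 4 lay inside the WT range for the Lama2 and Lama4 shares and was the highest WT library for Lama1. The shares of 1 class are tied to each other, they were noticed among many, and their difference was not tested.

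At E14 the fold change was negative for 9 of the 10 genes, with a median of -0.24 against -0.04 over all genes. Lama1 had the lowest unadjusted p: its log2 fold change was -0.62 (SE 0.23, unadjusted p = 0.0141, edgeR adjusted p = 0.942), and 3 of the 4 KO libraries lay below all WT libraries. It was -0.35 without E14 WT replicate 2 and -0.34 with offsets for transcript length and GC content, in a range of edgeR and DESeq2 adjusted p of 0.558 to 1 over the alternatives. Without E14 WT replicate 2, the sign turned for Lama5 (0.24), Lamb2 (0.27) and Lamc3 (0.06). With the offsets it turned for Lama2 (0.055), Lama3 (8e-04), Lama4 (0.10), Lama5 (0.10) and Lamb2 (0.14). With all libraries and no offsets, the genes other than Lama1 ran from -0.42 for Lamb3 to 0.06 for Lamb1, with 0 inside each 95% interval. In CPM, no laminin gene had KO and WT libraries without overlap at E14, against 1.63% of all genes. As a share of the alpha chains, Lama1 ran over 2.78 to 3.00% in E14 KO and 3.18 to 7.36% in E14 WT libraries. These shares did not overlap, with KO on the lower side as at P25, and the difference was not tested.

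The difference between the genotypes was also compared across stages. The interaction, which is the KO over WT log2 fold change at P25 minus that at E14, was called for 0 of 10 laminin genes and for 0 of all 15109 genes (0%); 0 of the 10 and 4.28% of all genes had an unadjusted p under 0.05, and DESeq2 called 0 of the 10 and 8 genes in all. It was largest for Lama5 at 0.73 (95% interval -0.34 to 1.79), followed by Lamc3 at 0.54 (-0.32 to 1.41). Without E14 WT replicate 2 these were 0.13 for Lama5 and 0.10 for Lamc3. Lamb1 and Lama4 had values of -0.08 and -0.09, with intervals of -0.55 to 0.38 and -0.62 to 0.43.

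Spread within groups was shared unevenly by the laminin genes. In E14 WT replicate 2, the deviation of log2 CPM from the group mean rose with the GC content of the transcript, which is 47.7% for Lama2, 58.4% for Lamc3, 58.8% for Lamb2 and 59.9% for Lama5; Pearson's r was 0.935 over the 10 genes of that 1 library, given as a description. In the other 3 libraries of its group, whose deviations are taken from the same mean, r was -0.55 to -0.88, and in the E14 KO and P25 libraries it ran from -0.652 to 0.635. In P25 WT replicate 4 all 10 genes lay below their group mean, with a median deviation of -0.43 on the log2 scale, and r with GC content was 0.169. P25 WT replicate 3 had all 10 genes above the mean, with a median of 0.23. The part of GC content, length or RNA quality in these deviations was not tested beyond the offsets given above.

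**Figure D4:**
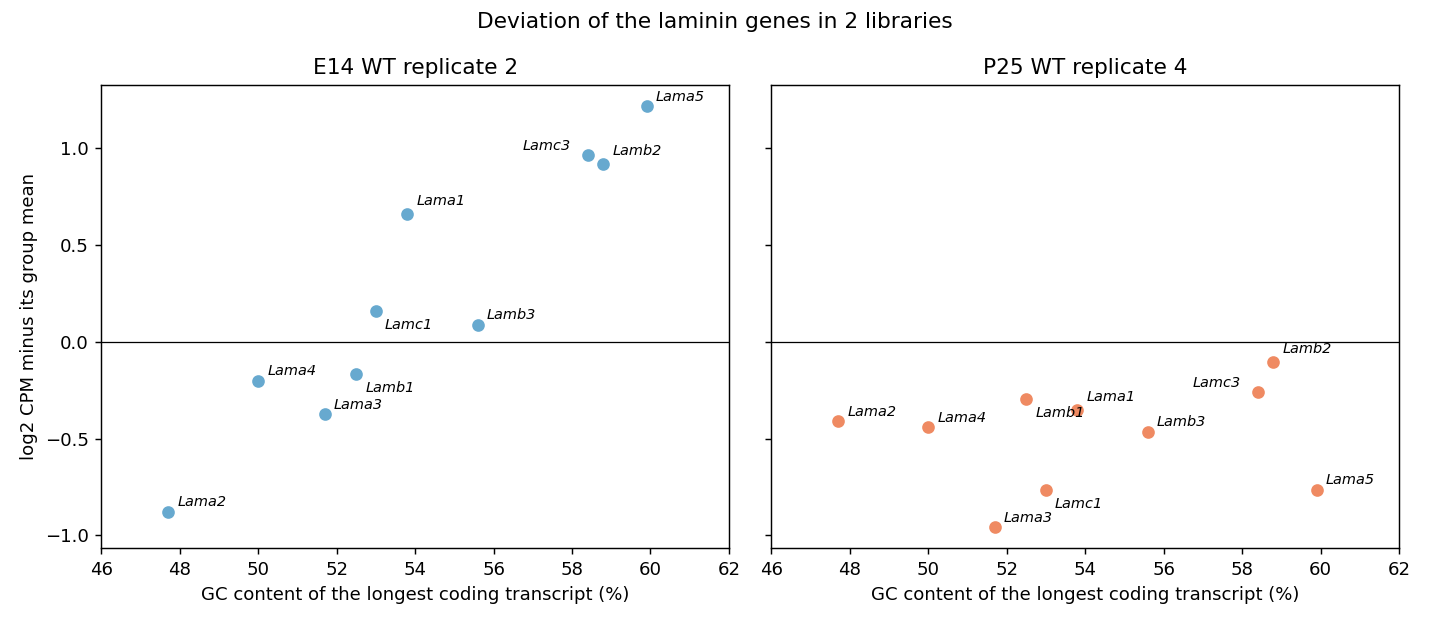
Deviation of log2 CPM from the group mean against the GC content (%) of the longest coding transcript, with 1 point per laminin gene, in E14 WT replicate 2 and P25 WT replicate 4. The points of E14 WT replicate 2 climb from Lama2 at the low end of GC content to Lama5 at the high end, while all 10 points of P25 WT replicate 4 lie below 0.

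Over all 16 libraries, deviations from group means were compared between genes, with r as a description, since the points share library and depth. Among the laminin genes r was highest for Lama5 with Lamc3 (0.839) and lowest for Lama2 with Lamb2 (-0.662). Among 9613 other genes at a mean of at least 10 CPM, those most like Lamc3 were Sik1, a kinase (r = 0.959), Dusp8, a phosphatase (0.945), and Map6, a microtubule protein (0.937). Those most like Lama1 were Mtmr3, a lipid phosphatase (0.946), Kat7, a histone acetyltransferase (0.941), and Tom1l2, a trafficking protein (0.941). None of these encodes a basement membrane protein, and E14 WT replicate 2 was high in both Lamc3 and Lama1.

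Genes related to the laminins by structure were examined next. The list of laminin-related netrins had 6 genes tested, of which 5 were higher and 1 lower at P25 in KO ganglia, and 5 were higher and 1 lower in WT ganglia, with medians of 1.73 and 1.03 (log2). Over all genes the median was 0.01 in KO and 3e-04 in WT, with 30.6% called higher and 29.2% lower in KO ganglia and 29.7% and 29.8% in WT ganglia. Ntn3, a netrin of sensory ganglia, was the one that fell. It averaged 7.99 ± 1.01 CPM in P25 KO against 60.4 ± 2.72 CPM in E14 KO, and 7.77 ± 1.57 CPM in P25 WT against 70.2 ± 30.6 CPM in E14 WT. Its log2 fold change was -2.92 in KO ganglia (SE 0.24, edgeR adjusted p = 3.68e-09) and -3.17 in WT ganglia (SE 0.25, edgeR adjusted p = 1.19e-09). The Ntn3 mean in E14 WT was 55.2 ± 6.89 CPM without E14 WT replicate 2 (n = 3). Ntn4, which can bind into laminin sheets, rose: it averaged 10.3 ± 1.39 CPM in P25 KO against 1.94 ± 0.807 CPM in E14 KO, and 9.63 ± 1.63 CPM in P25 WT against 1.58 ± 0.712 CPM in E14 WT (log2 fold change 2.42 in KO and 2.59 in WT). Ntn5 rose by 1.89 in KO and 1.50 in WT. Ntng2, a membrane-anchored netrin-G, rose by 1.57 in KO and 1.03 in WT.

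The list of laminin receptors had 12 genes tested. Of these, 8 were higher and 3 lower at P25 in KO ganglia, and 6 were higher and 3 lower in WT ganglia. Shares over all genes were 30.6% and 29.2% in KO and 29.7% and 29.8% in WT. The 3 lower genes were Itga2, Itga9 and Rpsa in both genotypes. Whether each listed gene acts as a laminin receptor in the ganglion was not tested. Bcam, the Lutheran glycoprotein that binds alpha-5, had the largest change and averaged 1290.1 ± 36.2 CPM in P25 KO against 116 ± 11.7 CPM in E14 KO, and 1318 ± 216 CPM in P25 WT against 123 ± 42.7 CPM in E14 WT. Its log2 fold change was 3.48 in KO ganglia (SE 0.21, edgeR adjusted p = 3.4e-11) and 3.43 in WT ganglia (SE 0.21, edgeR adjusted p = 4.04e-11). Itgb4, the integrin chain of hemidesmosomes and of the Schwann cell and perineurial surface, rose by 2.22 in KO and 1.86 in WT. Itga1, a collagen and laminin binding integrin chain, rose by 2.32 and 1.50 in the same order. Itga9 fell, with -1.23 in KO and -1.53 in WT.

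Basement membrane partners changed in both directions. Of 17 listed genes 16 were tested; 5 were higher and 8 lower at P25 in KO ganglia (30.6% and 29.2% of all genes), and 5 were higher and 9 lower in WT ganglia (29.7% and 29.8% of all genes), with medians of -0.56 and -1.02. The counts were 6 and 9 in KO and 6 and 10 in WT without E14 WT replicate 2 and P25 WT replicate 4, though no KO library was left out. Agrn, the proteoglycan agrin that links laminin to dystroglycan, averaged 103 ± 18.1 CPM in P25 KO against 799 ± 105 CPM in E14 KO, and 86.6 ± 18.02 CPM in P25 WT against 948 ± 523 CPM in E14 WT (log2 fold change -2.96 in KO and -3.45 in WT). The E14 WT mean of Agrn was 691 ± 117 CPM without E14 WT replicate 2 (n = 3), and without P25 WT replicate 4 as well its WT fold change was -2.86. Col18a1, the collagen that yields endostatin, had -2.85 and -3.18. Smoc2, a calcium-binding matrix protein, rose most among the genes at a mean of at least 1 CPM: it averaged 103 ± 9.41 CPM in P25 KO against 4.30 ± 0.609 CPM in E14 KO, and 108 ± 10.9 CPM in P25 WT against 6.61 ± 1.799 CPM in E14 WT (log2 fold change 4.58 in KO and 4.03 in WT). Col4a4, a collagen IV chain best known from kidney, rose by 3.62 and 3.07, at P25 means of 4.17 ± 0.803 CPM in KO and 3.13 ± 0.988 CPM in WT.

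Dystroglycan-associated proteins were higher at P25 wherever they were called. Of 14 listed genes 12 were tested, and 9 rose and 0 fell in KO ganglia and likewise 9 and 0 in WT ganglia, while 30.6% of all genes rose and 29.2% fell in KO and 29.7% rose and 29.8% fell in WT. Prx, the Schwann cell protein periaxin, averaged 2070.5 ± 537 CPM in P25 KO against 13.5 ± 2.48 CPM in E14 KO, and 2307 ± 176 CPM in P25 WT against 18.6 ± 6.94 CPM in E14 WT, with a log2 fold change of 7.26 in KO ganglia (SE 0.29, edgeR adjusted p = 1.32e-13) and 6.96 in WT ganglia (SE 0.29, edgeR adjusted p = 2.04e-13). Drp2, the dystrophin relative that joins periaxin to dystroglycan at the myelin surface, averaged 557 ± 27.03 CPM in P25 KO against 19.6 ± 2.27 CPM in E14 KO, and 547 ± 128 CPM in P25 WT against 21.98 ± 3.69 CPM in E14 WT (log2 fold change 4.83 in KO and 4.64 in WT). Sgcd, a sarcoglycan, rose by 2.12 and 1.62, and Utrn, the dystrophin relative utrophin, by 2.05 and 1.47. The enzymes that build the laminin-binding sugar chain of dystroglycan formed another list. Of 12 tested, 3 rose and 1 fell in KO ganglia, and 2 rose and 1 fell in WT ganglia, where 59.8% and 59.6% of all genes were called. Pomt1, an enzyme that starts the chain, fell with -0.90 in KO and -0.88 in WT. B4gat1 rose by 0.64 and 0.82, and Pomgnt2 by 0.81 and 0.64. In the genotype comparisons and the interaction, 0 genes of these 5 lists were called by edgeR.

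**Figure D5:**
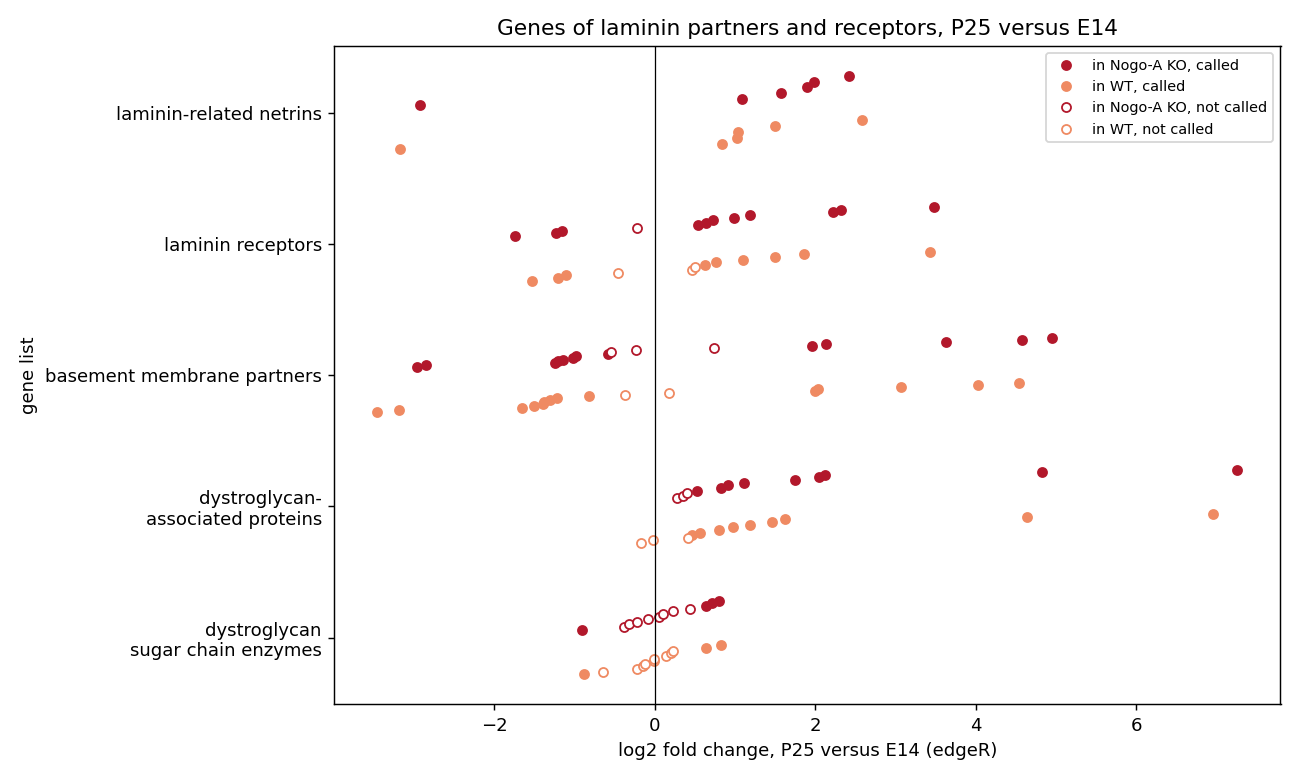
Log2 fold change, P25 over E14, of the tested genes of 5 lists related to laminins, in KO and in WT ganglia; filled points were called. All called dystroglycan-associated proteins lie right of 0, most called basement membrane partners lie left of it, and the sugar chain enzymes lie within 1 of 0.

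The makeup of the ganglion differed between stages as well. Schwann cell markers (8 genes, 6 higher and 1 lower at P25 in KO and in WT) summed to 20643 to 41574 CPM in P25 KO, 26456 to 30846 CPM in P25 WT, 927 to 1165 CPM in E14 KO and 959.9 to 1511 CPM in E14 WT libraries. Endothelial markers (8 genes, 2 higher and 4 lower in KO, 1 higher and 5 lower in WT) summed to 81.03 to 148 CPM in P25 KO, 82.9 to 111 CPM in P25 WT, 190.4 to 245 CPM in E14 KO and 194 to 228 CPM in E14 WT libraries. The laminin genes that rose and fell thus moved beside lists that rose and fell, and the part of cell makeup in their levels was not tested. Perineurial markers (4 genes, all higher in both genotypes; Itgb4 is one of them) summed to 158 to 249 CPM in P25 KO, 178 to 224 CPM in P25 WT, 74.7 to 93.00 CPM in E14 KO and 71.6 to 111 CPM in E14 WT libraries. Fibroblast markers (6 genes, 5 higher in KO and 3 in WT) summed to 1696 to 2093 CPM in P25 KO, 1699 to 2076 CPM in P25 WT, 774 to 1172 CPM in E14 KO and 993 to 1440.5 CPM in E14 WT libraries, and satellite glia markers (5 genes, 4 higher in each) to 5649 to 7638 CPM in P25 KO, 4913 to 7577 CPM in P25 WT, 705 to 954 CPM in E14 KO and 666 to 924 CPM in E14 WT libraries. Mural cell markers (7 genes, 3 higher and 2 lower in each) overlapped between all groups, at 176 to 231 CPM in P25 KO, 164 to 235 CPM in P25 WT, 152 to 185 CPM in E14 KO and 149 to 302 CPM in E14 WT libraries. Glia of the central nervous system, whose nerve root can be taken with a ganglion (6 genes, 5 tested, 4 higher in each), summed to 136 to 296 CPM in P25 KO, 9.51 to 277 CPM in P25 WT, 9.43 to 15.1 CPM in E14 KO and 2.38 to 13.9 CPM in E14 WT libraries; Olig2, Mobp and Opalin were at 0 in every E14 library. P25 WT replicate 3 had the lowest of these P25 sums. In the genotype comparisons 0 markers of these lists were called.

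Other lists marked tissues near the ganglion. Cartilage markers (4 genes, 3 tested, 2 higher and 1 lower in each genotype) summed to 12.5 to 17.4 CPM in P25 KO, 17.2 to 18.7 CPM in P25 WT, 186 to 275 CPM in E14 KO and 179 to 366 CPM in E14 WT libraries. Of these, Col2a1 was lower at P25 (log2 fold change -4.67 in KO and -4.64 in WT), while Acan (5.22 and 4.05) and Comp (3.27 and 2.77) were higher. Erythroid markers (4 genes, all lower at P25 in both genotypes) summed to 67.4 to 98.9 CPM in P25 KO, 40.6 to 92.9 CPM in P25 WT, 441 to 837 CPM in E14 KO and 393 to 774 CPM in E14 WT libraries. Surface epithelium markers (8 genes, 4 tested, 2 higher and 1 lower in KO, 3 higher and 1 lower in WT), from the tissue where Lama3 and Lamb3 are best known, summed to 223 to 289 CPM in P25 KO, 209.6 to 325 CPM in P25 WT, 51.3 to 59.1 CPM in E14 KO and 42.1 to 66.3 CPM in E14 WT libraries. Among them Cdh1 was higher at P25 (2.27 in KO and 2.41 in WT) and Krt15 lower (-3.81 and -3.04), and Krt5, Krt14, Krt18 and Epcam were too low to test. Macrophage markers (5 genes, 5 higher in KO and 4 in WT) summed to 114 to 180.3 CPM in P25 KO, 146 to 169.6 CPM in P25 WT, 30.98 to 44.6 CPM in E14 KO and 38.2 to 71.2 CPM in E14 WT libraries, and skeletal muscle markers (6 genes, 5 tested, 3 lower in KO and 4 in WT) to 4.20 to 6.89 CPM in P25 KO, 3.54 to 6.41 CPM in P25 WT, 7.47 to 22.1 CPM in E14 KO and 6.48 to 13.98 CPM in E14 WT libraries.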

How the data were processed

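Per the labels' protocols, RNA was extracted with TRIzol and libraries were made with a stranded mRNA kit. The authors deposited whole-number estimated counts, 1 per gene. Per the submitters' processing notes, kallisto 0.46, fastp 0.20.0, GRCm39 and DESeq2 1.32.0 were used, in no stated role; whether counting used strand is not stated. Estimated counts divide reads among similar transcripts by a model. Gene-level counts were fitted as deposited with edgeR 4.0.16 under R 4.3.3 (TMM scaling, filterByExpr, 1 mean per group, all 16 libraries, quasi-likelihood F test, Benjamini-Hochberg over 15109 genes, threshold 0.05). SEs come from the F statistic. CPM uses TMM-scaled totals. Positions, lengths and GC content come from GENCODE M21 (GRCm38), not the build named in the notes; 99.87% of tested genes had both length and GC content. Promoters are RefSeq's. The fit was also run on simulated counts that had no trend on length or GC content within groups, and no result above rests on that run. Alternatives were DESeq2 1.42.0, other scalings and filters, a replicate block, summed same-numbered ganglia, length and GC offsets, compared groups only and leaving out libraries. Named list genes are up to 4 per list with the largest called stage change in WT at a mean of at least 1 CPM. Some genes of these lists are not reported here and were left out of the list counts. The members and lists were chosen with earlier results of these data known. Figures used matplotlib 3.10.9. Every within-group pair of libraries differed by more than sampling noise (chi-square per gene 16.1 to 188). Intervals cover the spread between ganglia, which the labels describe as separate animals.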

Additional observations from a re-analysis of the deposited data

Results flagged for a closer look

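Among 80 levels and shares examined for a library far from its group, 8 were picked out, where chance picks about 1 in 20. The measure is the gap of the extreme library to its neighbour as a part of the group's range, set against Dixon's 95% limit for 4 libraries. P25 WT replicate 4 had the lowest Lama2 level, 54.4 CPM, against 79.0 to 80.02 CPM in the others. E14 WT replicate 2 had the highest Lama5 level, 25.7 CPM, against 6.97 to 9.84 CPM, and the highest Lamb2 level, 99.4 CPM, against 41.2 to 44.2 CPM. Its Lama5 share of the alpha chains was 6.07%, against 1.503 to 1.83%. P25 WT replicate 4 had the lowest Lamc1 share of the gamma chains, 89.5% against 92.9 to 93.3%, and so the highest Lamc3 share, 10.5% against 6.73 to 7.06%. The Lama1 share was lowest in E14 KO replicate 2, 2.78% against 2.97 to 3.00%, and in P25 KO replicate 1, 1.69% against 1.83 to 1.85%; both groups are otherwise narrow. Of the 8, 6 came from E14 WT replicate 2 and P25 WT replicate 4, the libraries in which the trend on transcript length and GC content was strongest.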

How the results depend on the processing

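The number of laminin genes called at P25 against E14 was 7 to 8 in KO ganglia and 6 to 8 in WT ganglia over 10 alternatives, and 7 to 8 and 6 to 8 without 1 library. It was 0 in both genotype comparisons and the interaction throughout, where the alternative applied. With the replicate block the counts were 8, 8, 0, 0 and 0. Across groups, libraries of the same replicate number did not deviate together (7 of 24 pairs over 0.1, r -0.429 to 0.273). The replicate numbers were thus not taken to pair samples, and this does not bear on the R and L ganglia of 1 number. Lama1, Lama2, Lama4 and Lamc3 kept their calls in every alternative. The length used for shares moved a share by at most 1.89 points with coding length, and leaving out 1 library by at most 3.92 points. Low counts limit Lamb3 and Lama3, and an alternative that did not test Lamb3 counts it as not called. For the related lists, alternatives added after seeing the data left the counts called at each stage comparison within 1.5 times, and 0 genes were called in the genotype comparisons and the interaction. Of 1326 values of named list genes, 1312 kept their direction and side of the threshold, 2 lost the call (Sgcd in WT with offsets and Pomgnt2 in WT in the fit to the compared groups only), 11 gained it (Nid1 in 1 and Hspg2 in 10, with 0.89 in WT without E14 WT replicate 2 and P25 WT replicate 4) and 1 turned sign, Hspg2 in WT without P25 WT replicate 3 (-0.038).

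Signs that turned all belonged to values not called, and the cause was not tested. Without E14 WT replicate 2 and P25 WT replicate 4 together, chosen after seeing the data, Lama5 was 0.43 and Lamc1 0.025 for P25 over E14 in WT, Lama5 0.24, Lamb2 0.28 and Lamc3 0.064 for KO over WT at E14, Lamc1 -0.045 for KO over WT at P25, and Lama5 -0.074 and Lamb2 -0.25 for the interaction. With offsets for length and GC content, Lama5 was 0.12 and Lamc1 0.036 for P25 over E14 in WT; Lama2 was 0.055, Lama3 8e-04, Lama4 0.10, Lama5 0.10 and Lamb2 0.14 at E14; Lamb2 was -0.056 at P25; Lama3 was -0.10 and Lamb2 -0.20 for the interaction. With same-numbered ganglia summed, Lama4 was 0.039 and Lamb2 0.058 at E14; at a minimum of 1 CPM, Lama4 was 7e-04 there; with library totals alone, Lamb1 was 0.020 at P25; with the replicate block, Lamb3 was 0.14 for the interaction.

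Ranges without 1 library, for the genes whose sign turned in any alternative, were as follows. For P25 over E14 in WT, Lama5 ran from -0.67 to 0.23 and Lamc1 from -0.33 to -0.029. For KO over WT at E14, Lama2 ran from -0.34 to 0.12, Lama3 from -0.53 to 0.011, Lama4 from -0.13 to 0.10, Lama5 from -0.51 to 0.24, Lamb2 from -0.21 to 0.27 and Lamc3 from -0.52 to 0.062. For KO over WT at P25, Lama3 ran from -0.30 to 0.22, Lamb1 from -0.11 to 0.078, Lamb2 from -0.074 to 0.17 and Lamc1 from -0.045 to 0.26. For the interaction, Lama3 ran from -0.083 to 0.47, Lama4 from -0.22 to 0.011, Lama5 from 0.13 to 1.02, Lamb2 from -0.22 to 0.27 and Lamb3 from -0.28 to 0.41.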

Other observations

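Some related genes had an unadjusted p under 0.05 between the genotypes without being called. They were picked by that p after their values were seen, against 1.87% of all genes at P25 and 4.86% at E14. At P25 they were 1 of 16 basement membrane partners and 1 of 12 dystroglycan-associated proteins. None of 6 netrins, 12 receptors and 12 sugar chain enzymes had such a p there. At E14 they were 1 of 6 netrins, 1 of 16 partners and 1 of 12 enzymes. None of 12 receptors and 12 dystroglycan-associated proteins had one at E14. At P25, Dmd, which encodes dystrophin, averaged 37.8 ± 6.28 CPM in KO and 24.01 ± 4.21 CPM in WT (SD, n = 4 each; log2 fold change 0.66, SE 0.31, edgeR adjusted p = 1), and its KO libraries lay above its WT libraries. Col4a5, a collagen IV chain, averaged 6.30 ± 0.818 CPM in KO and 4.26 ± 0.854 CPM in WT (log2 fold change 0.57, edgeR adjusted p = 1), with overlap. At E14, Smoc2 averaged 4.30 ± 0.609 CPM in KO and 6.61 ± 1.799 CPM in WT (-0.62, edgeR adjusted p = 0.942). Ntn1, the attractant netrin-1, averaged 2.92 ± 1.09 CPM in KO and 4.93 ± 2.02 CPM in WT (-0.76, edgeR adjusted p = 0.942), and Rxylt1, a sugar chain enzyme, 19.98 ± 4.13 CPM in KO and 13.4 ± 3.27 CPM in WT (0.58, edgeR adjusted p = 0.942).

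Other well-known partners of laminins followed different courses with stage. Dag1, which encodes dystroglycan, averaged 589.8 ± 155 CPM in P25 KO against 259 ± 20.4 CPM in E14 KO, and 611 ± 203 CPM in P25 WT against 284 ± 71.4 CPM in E14 WT (log2 fold change 1.19 in KO ganglia (SE 0.24, edgeR adjusted p = 0.000277) and 1.11 in WT ganglia (SE 0.24, edgeR adjusted p = 0.000535)). Col4a1, a main collagen IV chain, averaged 426 ± 49.1 CPM in P25 KO against 858 ± 122 CPM in E14 KO, and 409 ± 82.2 CPM in P25 WT against 1012 ± 273 CPM in E14 WT (log2 fold change -1.01 in KO ganglia (SE 0.19, edgeR adjusted p = 0.000163) and -1.31 in WT ganglia (SE 0.20, edgeR adjusted p = 9.76e-06)). Hspg2, which encodes perlecan, was not called, with 0.73 in KO (95% interval 0.02 to 1.45) and 0.18 in WT (-0.53 to 0.89). Without E14 WT replicate 2 and P25 WT replicate 4 it was called in both, at 0.74 in KO (edgeR adjusted p = 0.00278) and 0.89 in WT (edgeR adjusted p = 0.00222), and without P25 WT replicate 3 the WT value was -0.038. No KO library was left out for that KO call, and the KO value hardly moved. The spread is estimated from all 4 groups together, so the KO call is not separate evidence from KO ganglia. Nid1, nidogen-1, was not called, at -0.24 in KO and -0.37 in WT; the WT value was -0.52 without E14 WT replicate 2 (edgeR adjusted p = 0.0285). These 4 were chosen for their known binding to laminin, outside the rule for named genes.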
